A study of Mus musculus with 12 samples.

Results

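Radiotherapy plus a 4-1BB agonist was compared with the agonist alone, which asks what irradiation changed in tumours that also received the agonist. The comparison took 6 of the 12 libraries of the study, chosen by their treatment label: 3 from tumours given radiotherapy and muFAP-4-1BBL (RT_FAP41BBL) and 3 from tumours given muFAP-4-1BBL alone (FAP41BBL). All tumours were grown in mice from TS/A cells, a mouse mammary carcinoma line, mixed with cancer-associated fibroblasts, and every library carries the genotype label WT. The agent muFAP-4-1BBL joins the ligand of 4-1BB to a binder of mouse fibroblast activation protein. The other 6 libraries, 3 without treatment (control) and 3 with radiotherapy alone (RT), entered the fit to estimate the spread and to set the same step without the agonist beside it. The labels give no dose, fractionation, harvest time or animal for a library. The replicates may therefore be technical, and a p-value reflects only how far these particular libraries vary. Of 56884 genes in the count tables, 17757 had enough counts to be tested.

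Ionising radiation breaks DNA, which activates the transcription factor p53 and, where nucleic acids reach the cytosol, sensors that induce type I interferons. Interferons act on all cell types of a tumour and switch on a shared programme of antiviral genes, driven by transcription factors that include Irf7, Irf9 and Stat2. 4-1BB is a costimulatory receptor of activated T cells and natural killer cells. Cholesterol synthesis, a further theme of these data, is run by the transcription factor SREBP2, which cells hold inactive when their membranes are rich in sterols.

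The 6 libraries held 34076477 to 39069755 counts each and 24625 to 25612 genes with at least 1 count. Levels are in CPM, counts scaled to a common library size with TMM factors, and changes are log2 fold changes ± SE, RT_FAP41BBL minus FAP41BBL. A gene passed at an adjusted p under 0.05 by edgeR's quasi-likelihood test with Benjamini-Hochberg adjustment over all 17757 genes, and every adjusted p below is from that test. Fibroblast markers, 25 genes, summed to 12487 to 22872 CPM in FAP41BBL and 17006 to 18179 CPM in RT_FAP41BBL. The 16 epithelial markers summed to 343.7 to 497.1 and 349.8 to 419.5 CPM in the same order, a low level. Transcripts of both kinds of marker were present, but the sums do not show which cells made them. Skeletal muscle fibre genes, 22 in all, spread from 264.2 to 2754 CPM among the FAP41BBL libraries and from 823.5 to 1408 CPM among the RT_FAP41BBL libraries. In bulk tissue, more cells of a kind and more RNA per cell cannot be told apart.

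With radiotherapy, genes of the antiviral interferon programme, some receptors of monocytes and macrophages and the p53 target Cdkn1a were higher. Other receptors of macrophages (Mgl2, Gpr34 and Clec4n) were lower, as were 8 of 21 genes of cholesterol synthesis and its control. In all, 168 genes passed, 146 higher and 22 lower, which is 0.946% of those tested (0.822% higher and 0.124% lower). All 168 separated the 3 libraries of each group without overlap, which 23.2% of all tested genes did (12.3% higher and 10.9% lower). Of the higher genes 74 changed more than 2-fold, and of the lower genes 7. The median size of a called change was 0.992 on the log2 scale. The smallest adjusted p was 0.0188 and 72 of the 168 genes had one above 0.04.

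The number of calls rested on single libraries. It was 0 without FAP41BBL replicate 1 (1809 genes at an unadjusted p under 0.05, against 2398 with all libraries), 4 without FAP41BBL replicate 3, and 22, 3 and 77 without RT_FAP41BBL replicates 1, 2 and 3. Leaving out a library that was not compared moved it as well, to 84, 41 and 101 without control replicates 1, 2 and 3 and to 298 and 411 without RT replicates 2 and 3. In each of the 20 alternative fits all 168 genes kept their direction and an unadjusted p under 0.05. They had been picked for a small p in the full fit of the same libraries, so this is not independent support. Between 1481 and 2957 of all genes had such a p in these fits.

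**Figure D1:**
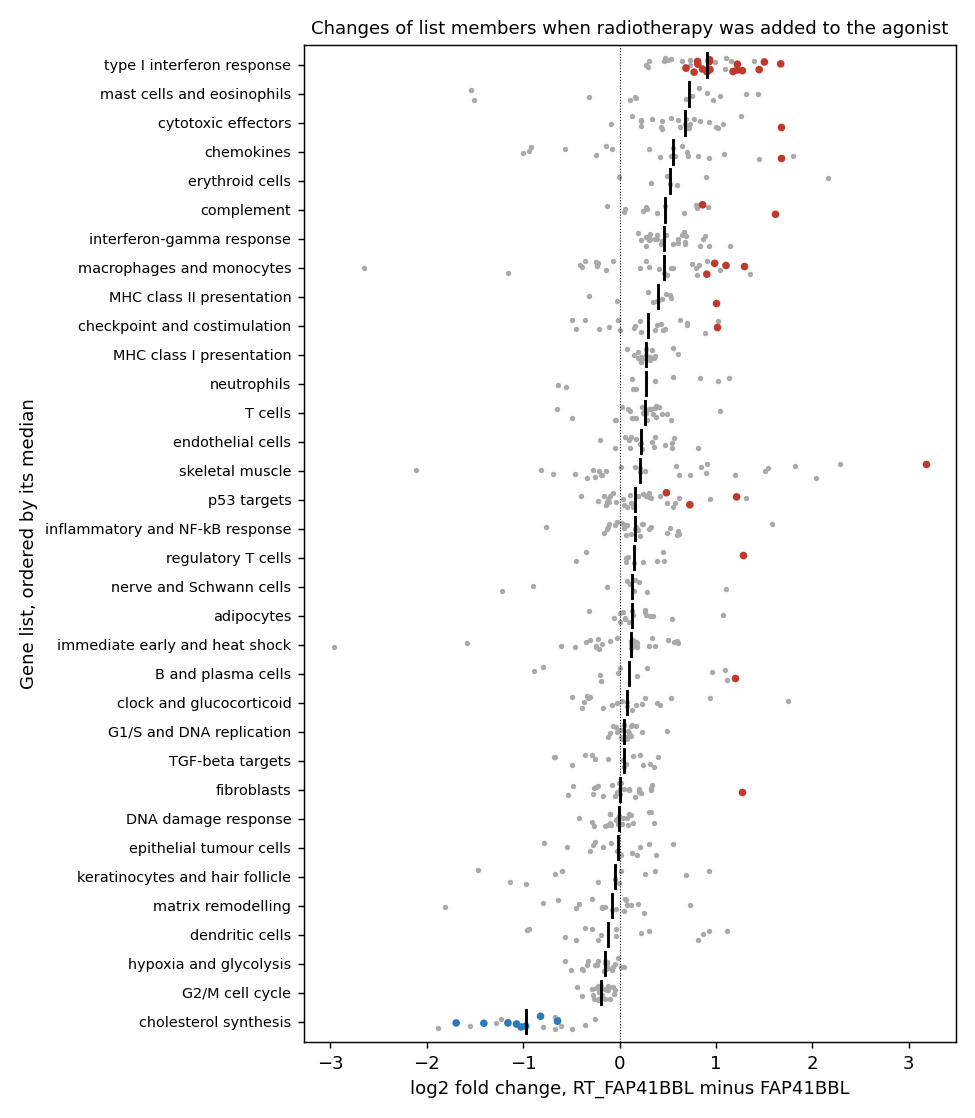
Each point is the log2 fold change (x axis) of a tested member of a gene list (y axis), RT_FAP41BBL minus FAP41BBL; coloured points passed the test, red higher and blue lower, and black bars are list medians. The type I interferon list lies to the right of 0 with a median of 0.91 and 16 members past the test, and the cholesterol synthesis list to the left of 0 with a median of -0.97 and 8 members past the test.

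The type I interferon list held 33 genes, all tested. Of these 16 rose and none fell, 29 separated the groups with the higher values in RT_FAP41BBL, and all 33 had a change above 0, from 0.27 to 1.67 with a median of 0.91. Irf7, the transcription factor that amplifies interferon production (ENSMUSG00000025498.16, chromosome 7, 140842619 to 140846394, minus strand, GRCm39), measured 312, 403 and 312 CPM in FAP41BBL replicates 1 to 3 and 824, 1339 and 747 CPM in RT_FAP41BBL. Every irradiated library lay above every library with the agonist alone, and the second RT_FAP41BBL replicate was the highest (log2 1.5 ± 0.20, adjusted p = 0.0188).

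Of 20 antiviral effectors 12 rose. Ifit3b encodes a member of a family that binds foreign RNA (ENSMUSG00000062488.10, chromosome 19, 34585370 to 34590801, plus strand). It stood at 20.1, 27.1 and 17.8 CPM with the agonist alone and at 59.1, 103 and 44.2 CPM with radiotherapy added (1.67 ± 0.27, adjusted p = 0.0234). Its relatives Ifit3 and Ifit1 rose by 1.45 and 1.27. Oasl1, related to the enzymes that make the second messenger of RNase L, went from 50.5, 59 and 49.1 to 109, 168 and 92.9 CPM (1.22 ± 0.20, adjusted p = 0.0234). Among the enzymes proper, Oas3 rose by 1.22 and Oas2 by 0.81. The groups did not overlap for any of these genes, and RT_FAP41BBL replicate 2 carried the highest value of each.

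Other effectors past the test were Rsad2, which makes a chain-terminating nucleotide (1.18), the nucleotide kinase gene Cmpk2 (0.94), Ifi44 (0.93), Zbp1, a sensor of Z-form nucleic acids that can start necroptosis (0.91), Oasl2 (0.86) and Ifi27l2a (0.81). Several well-known members lay just outside the threshold: Mx1, a GTPase that traps viral particles, had a change of 1.39 ± 0.29 (adjusted p = 0.0513), and Isg15, the ubiquitin-like modifier, had 1.16 ± 0.26 (adjusted p = 0.0571). Isg15 measured 98.3, 105 and 87.1 CPM against 187, 317 and 145 CPM, again without overlap. In the conjugation and feedback branch, Uba7, the enzyme that activates Isg15, and Rtp4 rose by 0.69 and 0.77. Usp18, which removes Isg15 and restrains the receptor, had 0.99 ± 0.21 (adjusted p = 0.0512).

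Of 4 sensors of foreign nucleic acid, Dhx58, a regulator of RNA sensing, rose (0.93 ± 0.18, adjusted p = 0.0427). Ifih1, Ddx58 and Cgas had changes of 0.73, 0.53 and 0.27 and did not pass. Among the transcription factors Irf7 rose, while Stat2 had 0.65 ± 0.16 and Irf9 0.30 ± 0.09, with adjusted p-values of 0.085 and 0.155.

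Summed over the 33 genes, the list stood at 3899, 4828 and 3822 CPM in FAP41BBL and at 7089, 10166 and 6347 CPM in RT_FAP41BBL. The count of 16 was 0 without FAP41BBL replicate 1 or 3, 1 without RT_FAP41BBL replicate 1 or 2, 6, 3 and 10 without control replicates 1, 2 and 3, 9 without RT replicate 1, and between 15 and 20 without any of the others. It was 5 with only the compared groups fitted and 28 with DESeq2. The list's median stayed between 0.67 and 1.03 over all alternatives.

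**Figure D2:**
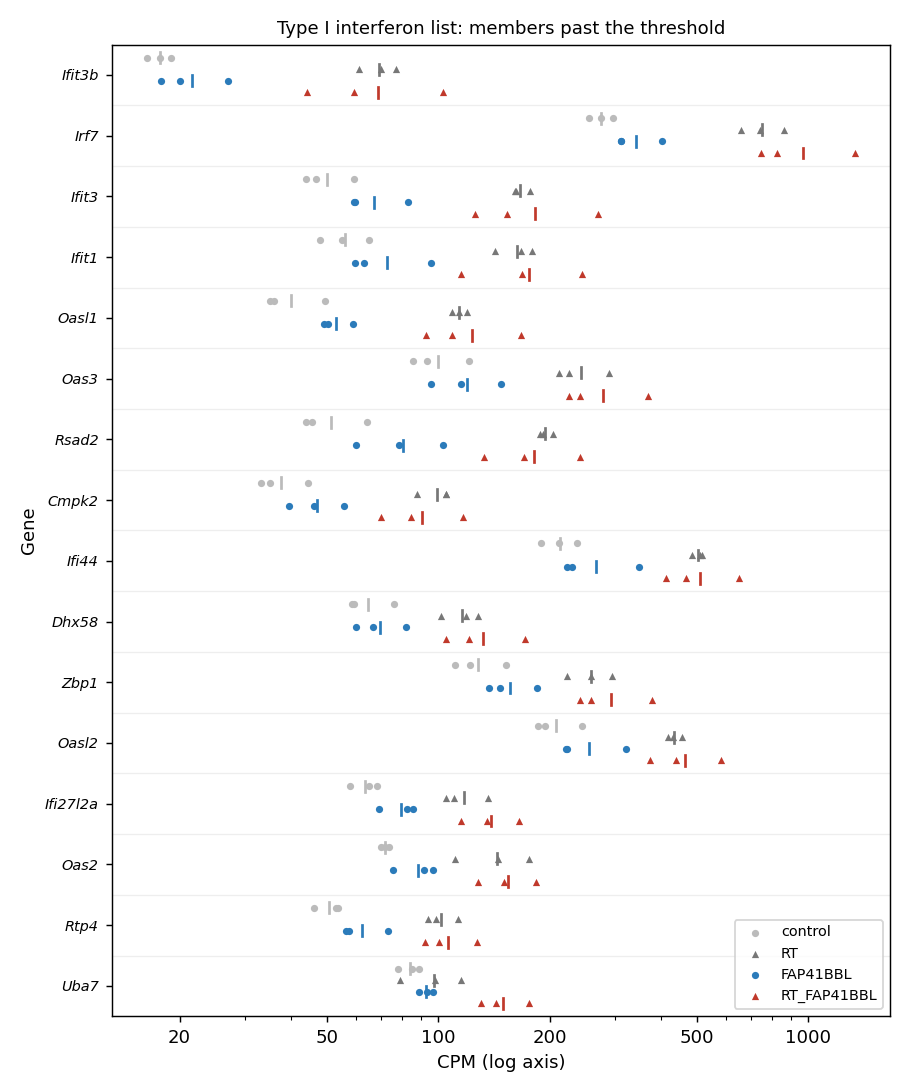
CPM on a log axis (x axis) of the 16 type I interferon list members past the test (y axis), 1 point per library and a short bar at each group mean, for control, RT, FAP41BBL and RT_FAP41BBL. For each gene the 3 RT_FAP41BBL libraries lie to the right of the 3 FAP41BBL libraries.

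Promoter sequence is shown for the genes that stand for each theme, with the letters of a matching element in capitals: Ifit3b for interferon, Cdkn1a for p53 and Hmgcs1, chosen after its values and match were seen, for sterol control. Each is the 250 bases before the most upstream RefSeq transcription start in the table used (GRCm38.p6, 5′ to 3′ along the gene): chr19:34607707-34607956, plus strand, for Ifit3b, chr17:29090729-29090978, plus strand, for Cdkn1a, and chr13:119690101-119690350, plus strand, for Hmgcs1.
Ifit3b: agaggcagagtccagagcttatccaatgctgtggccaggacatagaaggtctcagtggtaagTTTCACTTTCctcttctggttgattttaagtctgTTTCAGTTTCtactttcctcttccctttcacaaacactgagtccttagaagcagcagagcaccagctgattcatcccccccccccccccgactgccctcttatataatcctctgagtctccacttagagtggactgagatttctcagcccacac
Cdkn1a: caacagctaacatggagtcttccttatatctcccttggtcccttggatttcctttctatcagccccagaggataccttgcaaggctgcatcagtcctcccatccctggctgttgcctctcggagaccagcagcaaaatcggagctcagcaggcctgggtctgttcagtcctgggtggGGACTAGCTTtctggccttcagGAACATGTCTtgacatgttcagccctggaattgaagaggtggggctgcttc
Hmgcs1: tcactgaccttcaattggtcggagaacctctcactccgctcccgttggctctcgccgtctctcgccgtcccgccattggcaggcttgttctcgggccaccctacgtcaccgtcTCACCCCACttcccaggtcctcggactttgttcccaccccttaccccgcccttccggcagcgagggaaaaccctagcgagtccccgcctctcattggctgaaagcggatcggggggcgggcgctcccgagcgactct
The interferon-stimulated response element core was searched on both strands as a pair of TTTC runs with any 2 bases between them, the p53 half-site by its usual decamer, and the sterol regulatory element as TCACNCCAC on both strands. Ifit3b held 2 cores, from -188 to -179 and from -154 to -145 relative to the start. Cdkn1a held 2 half-sites, from -73 to -64 and from -51 to -42, and Hmgcs1 held 1 sterol element, from -137 to -129.

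No match was found in this window for Irf7 and Oasl1 (interferon element) or for Sesn2 and Aen (p53 half-site), which says only that these letters are not there. Of 32851 promoters in the table, 2.98% held the interferon core, 7.13% the p53 half-site and 1.05% the sterol element. Counted over 27025 genes by any start, the shares were 3.46%, 8.2% and 1.22%. Of the 33 interferon list members 24 had a promoter in the table and 9 of these held the core. For the p53 list 9 of 24 held the half-site, and for cholesterol synthesis 1 of 14 held the sterol element, counting any start of a gene. A match is a run of letters and was not tested as a binding site.

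Interferon-inducible families outside the list moved in the same direction, as seen after the values were known. The schlafen family, regulators of growth and translation in immune cells, had 3 of 7 tested members higher. Slfn4 led them, at 52.2, 80.9 and 64.9 CPM against 240, 290 and 146 CPM (1.77 ± 0.29, adjusted p = 0.0277), and Slfn1 and Slfn2 rose by 1.15 and 0.82. Phf11d and Phf11a rose by 1.22 and 1.24, and Ifi209 and Ifi214, of the DNA-binding Ifi200 family, by 1.03 and 1.37, while the other 11 tested genes of that family had changes above 0 without passing. Lgals3bp, a secreted glycoprotein, went from 442, 560 and 471 to 967, 1419 and 934 CPM (1.17 ± 0.17, adjusted p = 0.0188). Members of these families and of the Ifit, Oas, Ms4a6, Cd300, Clec4a and Sirpb1 groups are close copies of one another and can share reads, so single values are uncertain.

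The interferon-gamma list differed in its count. None of its 28 tested genes passed the test, although all 28 had a change above 0, with a median of 0.47, and 9 separated the groups; 12 had an unadjusted p under 0.05. The GTPase genes Gbp3 and Tgtp1, which attack pathogen vacuoles, had 0.68 ± 0.19 and 0.87 ± 0.25 (adjusted p = 0.11 and 0.127). Cxcl9, a T cell chemokine induced by interferon-gamma, measured 273, 360 and 224 CPM in FAP41BBL and 214, 425 and 419 CPM in RT_FAP41BBL, with overlapping groups (0.30 ± 0.41, adjusted p = 0.818). The difference between the interferon lists was not tested. MHC class I genes had a median of 0.27 over 19 members, all above 0 and none past the test.

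Of 32 p53 target genes 3 rose and none fell. Cdkn1a, the inhibitor of cyclin-dependent kinases that halts the cell cycle after damage (ENSMUSG00000023067.15, chromosome 17, 29309950 to 29319701, plus strand), measured 55.5, 60.1 and 61.5 CPM in FAP41BBL and 137, 157 and 116 CPM in RT_FAP41BBL. The lowest irradiated library had more than any library with the agonist alone (1.21 ± 0.14, adjusted p = 0.0188), and the gene passed in 11 of the 12 fits that left out a library, but not without FAP41BBL replicate 1. Sesn2, an inhibitor of mTORC1 signalling, was steady at 15.1, 14.9 and 14.9 CPM with the agonist alone and stood at 22.8, 28 and 23.7 CPM with radiotherapy (0.73 ± 0.11, adjusted p = 0.0201). Aen, a nuclease of apoptosis, rose by 0.49 ± 0.10 (adjusted p = 0.0435). The count of 3 was 0 without FAP41BBL replicate 1, 1 without FAP41BBL replicate 3 or RT_FAP41BBL replicate 2, 5 without RT replicate 3 or with limma-voom, and 9 with DESeq2.

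The other 29 genes of the p53 list did not pass, and the median over the list was 0.16. Eda2r, a death receptor that p53 induces, had the highest value of the list without passing (1.31 ± 0.38, adjusted p = 0.128). Mdm2, the ubiquitin ligase that degrades p53, had 0.24 ± 0.11 (adjusted p = 0.345), and Ccng1, which encodes cyclin G1, had 0.32 ± 0.10 (adjusted p = 0.174). The proapoptotic genes Bax and Bbc3 had 0.50 and 0.62, and Fas -0.10, none past the test. Trp53cor1, a long noncoding RNA gene beside Cdkn1a that p53 induces, was outside the list and was named after its values were seen: it stood at 0.201, 0.318 and 0.406 CPM against 1.35, 1.47 and 1.58 CPM (2.25 ± 0.38, adjusted p = 0.0234). Genes of DNA damage signalling and repair, 24 in number, had none past the test and a median of -0.01.

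Of the 34 lists only cholesterol synthesis held genes that fell past the test. Of its 21 tested genes 8 fell and none rose, 17 separated the groups with the lower values in RT_FAP41BBL, and all 21 had a change below 0, with a median of -0.97. The regulators were among them. Srebf2, which encodes SREBP2 (ENSMUSG00000022463.9, chromosome 15, 82031382 to 82089580, plus strand), measured 243, 154 and 203 CPM in FAP41BBL and 92.5, 92.7 and 120 CPM in RT_FAP41BBL (-0.97 ± 0.16, adjusted p = 0.0234). Insig1, which retains SREBP2 in the endoplasmic reticulum and is itself induced by it, went from 53.2, 28.8 and 33.7 to 18.1, 18.1 and 20.8 CPM (-1.02 ± 0.21, adjusted p = 0.0459).

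Enzymes from the start to the end of the route were lower. Hmgcs1, which encodes an early synthase of the route (ENSMUSG00000093930.3, chromosome 13, 120151915 to 120169796, plus strand), stood at 108, 56.1 and 62.8 CPM against 32.8, 28.1 and 40.7 CPM (-1.16 ± 0.24, adjusted p = 0.0495). Sqle, the squalene epoxidase (ENSMUSG00000022351.15, chromosome 15, 59186926 to 59203041, plus strand), stood at 83.7, 43.9 and 54.5 CPM against 21.8, 19.1 and 27.8 CPM (-1.41 ± 0.24, adjusted p = 0.0267). Cyp51, the lanosterol demethylase, fell furthest among the 8, from 86, 38.1 and 46.4 to 16, 14.4 and 22.3 CPM (-1.70 ± 0.34, adjusted p = 0.0495). FAP41BBL replicate 1 carried the highest value of each of these genes, and the groups did not overlap.

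Fdft1, which joins farnesyl units into squalene, Hsd17b7, a sterol reductase, and Lss, the lanosterol synthase, fell by 1.07, 0.82 and 0.64 on the log2 scale. Idi1, which isomerises the building block of the route, had -1.88 ± 0.40 (adjusted p = 0.0568). Pmvk, Mvk and Mvd overlapped between the groups. Summed over the list, levels were 1554, 840.4 and 1049 CPM in FAP41BBL and 530.2, 521.1 and 668 CPM in RT_FAP41BBL. The count of 8 was 0 without FAP41BBL replicate 1 or 3 or RT_FAP41BBL replicate 1 or 2, between 2 and 4 without RT_FAP41BBL replicate 3, RT replicate 1 or any control library, and 9 to 12 without RT replicate 2 or 3 or FAP41BBL replicate 2, of which FAP41BBL replicate 2 gave 12. It was 2 with only the compared groups fitted, 4 with a muscle fibre score as covariate, 5 with RLE scaling factors and 16 with DESeq2. The median of the list lay between -1.18 and -0.74 in every alternative.

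**Figure D3:**
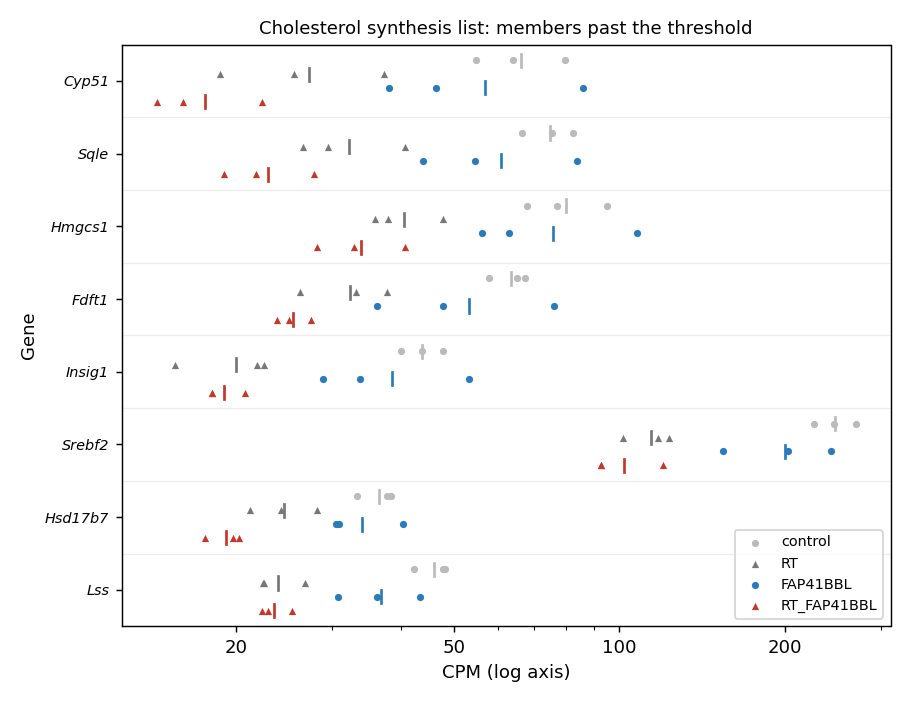
CPM on a log axis (x axis) of the 8 cholesterol synthesis list members past the test (y axis), 1 point per library and a short bar at each group mean, for control, RT, FAP41BBL and RT_FAP41BBL. The 3 RT_FAP41BBL libraries lie to the left of the 3 FAP41BBL libraries for each gene, and the RT libraries lie to the left of the control libraries.

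Neighbouring lipid genes also passed. Fads2, a desaturase of polyunsaturated fatty acids, and Acsl3, which activates fatty acids, fell by 0.94 and 0.86 on the log2 scale. In the other direction, Abcg1, a pump that exports cholesterol (ENSMUSG00000024030.8, chromosome 17, 31276649 to 31336962, plus strand), stood at 50.1, 118 and 87.2 CPM against 232, 281 and 290 CPM (1.65 ± 0.33, adjusted p = 0.0495). Nr1h3, which encodes the oxysterol receptor LXR alpha, went from 22, 21.1 and 21.6 to 38.5, 59.2 and 42.5 CPM (1.12 ± 0.23, adjusted p = 0.0475), and Pltp, a phospholipid transfer protein, rose by 1.00 ± 0.20. They were the 3 genes past the test of 12 tested in a list of sterol export and LXR target genes that was drawn up after the values were seen. The list had 9 members above 0 and 3 below, with a median of 0.46. Scd2, a desaturase in this list, had -0.73 ± 0.16 and separated the groups with the lower values in RT_FAP41BBL (adjusted p = 0.0553). Srebf1 and Fasn were near 0, at -0.03 and -0.06. Abca1, the other main sterol pump, had 0.76 ± 0.41 (adjusted p = 0.47), and Apoe, the lipid carrier, 0.75 ± 0.24 (adjusted p = 0.182).

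Some genes of monocytes and macrophages made up a second set of rises. Of 29 markers 4 rose and none fell, and the median was 0.46. The branches of the list differed. All 6 monocyte genes had a change above 0, with a median of 0.97, and 10 shared genes had a median of 0.39. The 13 tissue macrophage and lipid genes had a median of -0.14, with 7 below 0, a lowest value of -2.65 and none past the test. Ly6c2, the surface protein of inflammatory monocytes, measured 19.7, 23.9 and 25.8 CPM in FAP41BBL and 49.3, 78.2 and 43 CPM in RT_FAP41BBL (1.30 ± 0.19, adjusted p = 0.0188). Adgre1, which encodes the macrophage antigen F4/80, measured 148, 192 and 196 against 338, 393 and 419 CPM (1.10 ± 0.20, adjusted p = 0.0343). The high-affinity IgG receptor gene Fcgr1 and the monocyte gene Plac8 rose by 0.99 and 0.91. The groups separated for all 4 genes.

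Not every marker followed. Csf1r, the growth factor receptor of all macrophages, measured 299, 350 and 383 CPM against 359, 391 and 443 CPM, which overlap (0.21 ± 0.18, adjusted p = 0.672). Lyz2, the myeloid lysozyme, had -0.07 and Mrc1, the mannose receptor of tissue-type macrophages, -0.35, and neither passed. Cd14, Spp1 and Cd9 were lower in all 3 irradiated libraries without passing the test. The 29 genes summed to between 6252 and 7799 CPM in FAP41BBL and between 8149 and 10447 CPM in RT_FAP41BBL, all 29 were detected in each library, and the part of this difference in the interferon and receptor results was not tested. The count of 4 was 0 without FAP41BBL replicate 1 or 3, 2 without control replicate 1 or 2 or RT_FAP41BBL replicate 1, 1 without RT_FAP41BBL replicate 2 and 7 without RT replicate 2, and it was 11 with DESeq2. The median of 0.46 became 0.26 without FAP41BBL replicate 1 and 0.75 without FAP41BBL replicate 3.

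Surface receptors beyond the markers, most of them known from myeloid cells and collected after their values were seen, included some of the larger rises. The counts do not show which cells made them. Fcrl5, an Fc receptor-like protein best known from B cells (ENSMUSG00000048031.16, chromosome 3, 87343080 to 87407985, plus strand), stood at 2.69, 6.74 and 2.2 CPM with the agonist and at 28.4, 23.8 and 22.8 CPM with radiotherapy added (2.69 ± 0.53, adjusted p = 0.0473). Cd300e, an activating receptor of monocytes (ENSMUSG00000048498.9, chromosome 11, 114942743 to 114957500, minus strand), stood at 13.7, 23.5 and 13.3 CPM and at 68.8, 69.4 and 75.9 CPM (2.09 ± 0.37, adjusted p = 0.0392). Fpr1, the receptor for bacterial formyl peptides, went from 10.6, 15.9 and 10.2 to 33, 40.6 and 38.1 CPM (1.61 ± 0.29, adjusted p = 0.0338). In all 3 genes FAP41BBL replicate 2 was the highest of its group and still below every RT_FAP41BBL library.

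Receptor families were counted as a whole. The Fc receptor family, in which Fcrl5 had the highest value, had 13 members tested, 3 of them higher, and a median of 0.38. The Cd300 family of paired activating and inhibitory receptors had 11 members tested, all above 0, and 3 of them rose: Cd300e, Cd300lf (1.30) and Cd300ld (0.83). Of 12 tested Ms4a genes, which encode tetraspanning membrane proteins, 5 rose, among them Ms4a7 at 139, 135 and 117 against 284, 324 and 281 CPM (1.18 ± 0.17, adjusted p = 0.0188). All 9 tested Sirpb1, Lilr and paired immunoglobulin-like receptor genes separated the groups with higher values in RT_FAP41BBL, and Sirpb1a (0.99), Lilra6 (0.92) and the inhibitory receptor Pirb (0.89) rose.

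Siglec1, the sialic acid receptor of macrophages known as CD169 and induced by interferon, measured 167, 268 and 238 against 663, 627 and 528 CPM (1.43 ± 0.29, adjusted p = 0.048). It was the 1 gene past the test of 6 in the Siglec family, of which 3 lay above and 3 below 0, with a median of 0.09. Of 12 toll-like receptors Tlr7, which senses single-stranded RNA in endosomes, and Tlr13, which senses bacterial ribosomal RNA, rose by 1.10 and 0.83. The Clec4 family of C-type lectins had 8 members tested, 7 of them above 0, and a median of 0.57. Clec4a3 and Clec4a1, of the DCIR group, rose by 1.13 and 1.03, while Clec4n, which encodes the fungal receptor Dectin-2, fell by 0.57 on the log2 scale. Clec4n stood at 42, 39 and 42.2 CPM against 28.9, 28.9 and 25.2 CPM (adjusted p = 0.0435).

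The largest of the 22 falls was that of Mgl2, a galactose-binding lectin of alternatively activated macrophages and dendritic cells (ENSMUSG00000040950.14, chromosome 11, 70021155 to 70028376, plus strand). It measured 11.8, 12.8 and 18.2 CPM with the agonist alone and 4.1, 2.2 and 1.88 CPM with radiotherapy added (-2.38 ± 0.35, adjusted p = 0.0188). Gpr34, a receptor for lysophosphatidylserine on macrophages and microglia, fell by 1.03 and Gpr183, an oxysterol receptor that guides lymphocytes and dendritic cells, by 0.85 on the log2 scale. Further falls were those of Cd109, a surface protein that binds TGF-beta (-0.71), Gxylt2, a sugar transferase of Notch (-0.70), and Il1r1, the signalling receptor of interleukin-1 (-0.47).

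Other genes among the larger rises follow. Htra4, a secreted serine protease, went from 2.14, 5.24 and 3.28 to 18.5, 15.3 and 15.4 CPM (2.21 ± 0.37, adjusted p = 0.0234). Ifit1bl1, a close relative of Ifit1, went from 2.19, 3.88 and 3.31 to 9.84, 17.1 and 5.74 CPM (1.80 ± 0.34, adjusted p = 0.0392). Tex14, known from the bridges between germ cells, and Asb2, the substrate-binding part of a ubiquitin ligase, rose by 1.71 ± 0.34 and 1.5 ± 0.29. The groups did not overlap for any of the 4 genes.

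**Figure D4:**
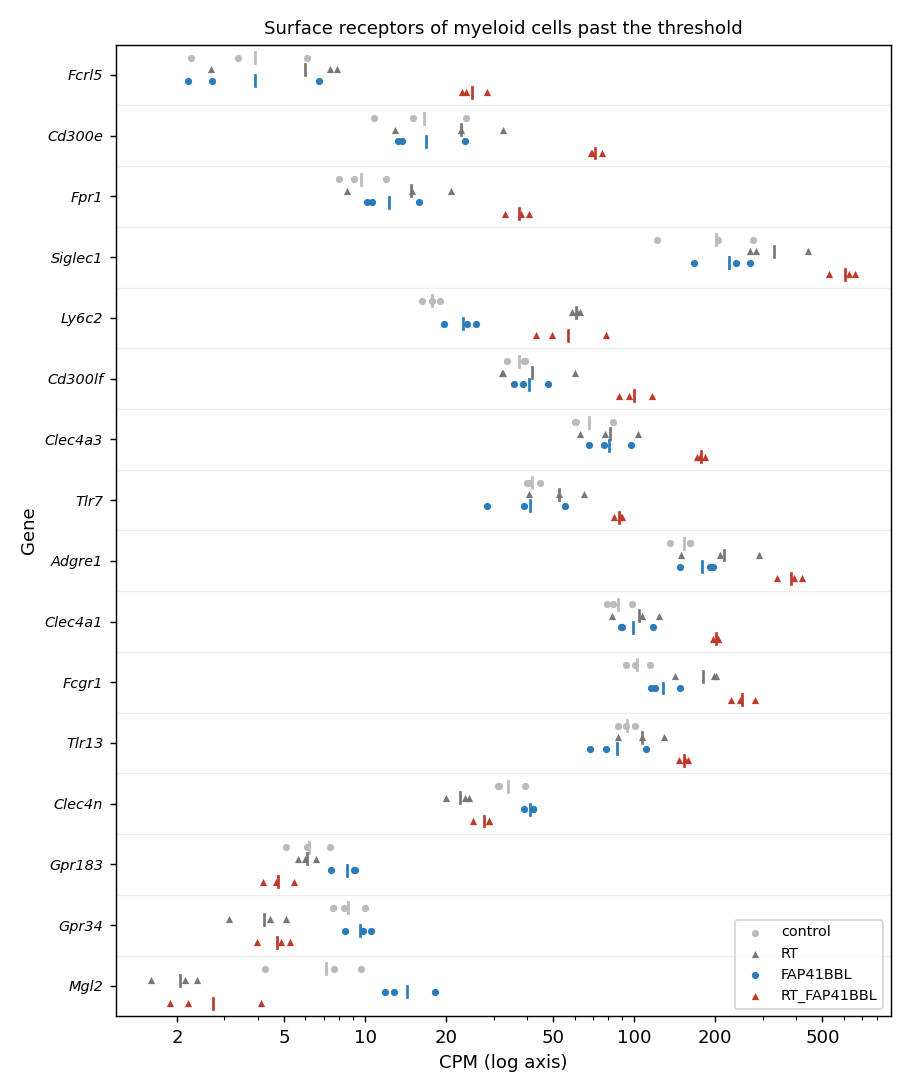
CPM on a log axis (x axis) of 16 surface receptor genes past the test (y axis), with 1 point per library and a short bar at each group mean for the 4 groups. Most are known from myeloid cells, Fcrl5 best from B cells, and the set was collected after the values were seen. RT_FAP41BBL lies to the right of FAP41BBL for 12 genes and to the left for Mgl2, Gpr34, Gpr183 and Clec4n.

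Of 14 tested cathepsin genes, proteases of the lysosome, 2 rose and the median was 0.31. Ctss, the cathepsin that trims the MHC class II invariant chain, measured 864, 938 and 847 against 1493, 1960 and 1853 CPM (1.00 ± 0.19, adjusted p = 0.0392), and Ctsh rose by 1.01. Grn, which encodes the lysosomal protein progranulin, went from 876, 934 and 907 to 1397, 1862 and 1486 CPM (0.80 ± 0.14, adjusted p = 0.0234). Lgmn, an asparaginyl protease, and Slc11a1, the phagosomal metal transporter, rose by 0.73 and 1.33. The signalling genes Vav1, Btk, Ncf1 and Irf5, which act downstream of immune receptors or in the oxidative burst, rose by 0.83, 0.64, 0.66 and 0.69. These genes were named after their values were seen.

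Complement had 2 of 15 tested genes higher and a median of 0.47. Cfb, factor B of the alternative pathway (ENSMUSG00000090231.11, chromosome 17, 35075350 to 35081494, minus strand), stood at 3.42, 5.09 and 3.8 against 11.5, 14.9 and 11.4 CPM (1.62 ± 0.22, adjusted p = 0.0188), and C3ar1, the receptor of the C3a fragment, rose by 0.86. The C1q chains C1qa, C1qb and C1qc had 0.83, 0.79 and 0.81 and did not pass, although none of them overlapped between the groups.

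Of 21 chemokine genes only Ccl5, which draws T cells and monocytes, passed the test over all libraries (ENSMUSG00000035042.3, chromosome 11, 83416604 to 83421344, minus strand). It measured 26, 38.5 and 30.1 CPM in FAP41BBL and 85.5, 145 and 71 CPM in RT_FAP41BBL (1.67 ± 0.25, adjusted p = 0.0201). All 7 monocyte-attracting chemokines had a change above 0, with Ccl4 at 1.45 and Ccl3 at 1.09. All 4 neutrophil-attracting chemokines had a change below 0, with Cxcl2 at -0.92, and none passed the test. Cxcl13, which attracts B cells, had 1.79 ± 0.42 (adjusted p = 0.0847).

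Genes of T cells and their killing machinery changed less clearly. The 25 cytotoxic effector genes had a median of 0.68 with 24 above 0 and 11 separating the groups, and Ccl5, which they share with the chemokines, was the single one past the test. Gzmb, which encodes granzyme B, measured 23.1, 49.4 and 29.4 CPM against 66.1, 110 and 68.2 CPM, higher in all 3 irradiated libraries (1.26 ± 0.32, adjusted p = 0.0963). Ifng, the interferon-gamma gene, measured 1.81, 2.6 and 1.89 against 2.29, 4.82 and 3.67 CPM and overlapped (0.78 ± 0.47, adjusted p = 0.519). The T cell list had no gene of 27 past the test and a median of 0.27, with Cd8a, the CD8 alpha chain, at 16.1, 18.1 and 19.3 against 18.2, 21.6 and 28 CPM (0.35 ± 0.32, adjusted p = 0.698).

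Havcr2, the inhibitory receptor TIM-3 of exhausted T cells, which macrophages and dendritic cells carry too (ENSMUSG00000020399.15, chromosome 11, 46345762 to 46372082, plus strand), was the 1 gene past the test among 22 checkpoint and costimulation genes. It measured 32.4, 40.2 and 31.1 CPM in FAP41BBL and 64.4, 71.5 and 72.5 CPM in RT_FAP41BBL (1.01 ± 0.15, adjusted p = 0.0188). Pdcd1, which encodes PD-1, and Lag3 had 0.21 and 0.70, and neither passed. Cd274, which encodes PD-L1, measured 93.6, 149 and 103 against 149, 276 and 212 CPM (0.88 ± 0.33, adjusted p = 0.254), with the highest agonist library level with the lowest irradiated library. Il10, an anti-inflammatory cytokine gene, rose from 1.49, 2.55 and 1.33 to 4.69, 4.45 and 3.91 CPM (1.28 ± 0.26, adjusted p = 0.0463), while Foxp3, the factor of regulatory T cells, had 0.09 ± 0.30 (adjusted p = 0.944).

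The target and the receptor of the agonist did not pass. Fap, which encodes fibroblast activation protein, measured 5.74, 7.67 and 18.9 CPM in FAP41BBL and 10.4, 5.92 and 6.75 CPM in RT_FAP41BBL (-0.49 ± 0.43, adjusted p = 0.692). Tnfrsf9, which encodes 4-1BB, measured 27.5, 34.2 and 36.9 against 25.4, 33.8 and 32 CPM (-0.11 ± 0.15, adjusted p = 0.818), and Tnfsf9, its natural ligand, had -0.02 ± 0.14 (adjusted p = 0.982). The groups overlapped for all 3 genes, and FAP41BBL replicate 3 was the highest of all 6 libraries for Fap.

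Fibroblast genes had a median of 0.00 over 25 members, with Ly6a, the stem cell antigen Sca-1 that interferon also induces, the 1 gene past the test (268, 290 and 273 against 528, 857 and 620 CPM, 1.27 ± 0.19, adjusted p = 0.0188). None of 24 G2/M genes passed and all 24 had a change below 0, with a median of -0.19. Mki67, the proliferation marker, stood at 332, 378 and 405 against 322, 305 and 399 CPM (-0.12 ± 0.22, adjusted p = 0.884). Endothelial genes (median 0.23), G1/S genes (0.04), TGF-beta targets (0.04), matrix remodelling (-0.07), hypoxia and glycolysis (-0.15), inflammatory genes (0.16), immediate early and heat shock genes (0.12) and dendritic cell genes (-0.12) had no member past the test. The immediate early and heat shock list was split. All 10 heat shock genes had a change below 0, with a median of -0.24 and a lowest value of -2.97. Of these, 6 separated the groups with the lower values in RT_FAP41BBL, as 10.9% of all tested genes did. Of 18 immediate early genes 15 had a change above 0, with a median of 0.17.

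Markers of other tissues were measured beside these groups. Skeletal muscle had 1 of 29 members past the test, Mymk, a fusion protein of myoblasts, at 0.101, 0.0289 and 0.058 against 0.714, 0.83 and 0.268 CPM, which is a few reads in each FAP41BBL library (3.18 ± 0.68, adjusted p = 0.0495). The list had a median of 0.21. Its 7 tested genes of muscle regeneration had a median of 1.82, and 4 had an unadjusted p under 0.05. Of the 7, 5 separated the groups with the higher values in RT_FAP41BBL, as 12.3% of all tested genes did. Fibre genes held 652.2 of the list's 657.3 CPM in FAP41BBL replicate 1 and 1333 of its 1348 CPM in RT_FAP41BBL replicate 1. The regeneration genes were thus at low levels, and their median rests on few reads. B and plasma cell genes had 1 of 12, Cd79b, a chain of the B cell receptor, at 1.19 ± 0.25 (adjusted p = 0.0477). Adipocyte, keratinocyte, erythroid, nerve, mast cell and neutrophil genes had none past the test, with medians of 0.13, -0.05, 0.52, 0.13, 0.72 and 0.27.

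The same step was measured without the agonist, RT against control, in libraries that share none with the comparison above. There 1709 genes passed (9.62% of those tested, 6.57% higher and 3.05% lower). Of the 168 genes 88 passed in both settings, 52.4% of the 168 and 5.15% of the 1709. They moved the same way in 86 cases, and Cyp26b1 and Abhd15 moved opposite ways. Of all 168 genes 154 had the same sign without the agonist, including all 22 that fell. The share of all tested genes with the same sign in both settings was not counted. With a muscle fibre score as covariate, 3 genes passed in RT against control in place of 1709, so the counts in that setting depend on this choice.

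The interferon and cholesterol genes moved in the same direction in both settings. The interferon list had 29 of 33 members higher and a median of 1.03 in RT against control, beside 16 and 0.91 with the agonist, and cholesterol synthesis had 15 of 21 lower and a median of -0.98, beside 8 and -0.97. No member of either list passed the test of the difference. Receptors named above varied in this respect, in examples chosen after their values were seen. Cd300e had 0.46 without the agonist against 2.09 with it, Fcrl5 0.62 against 2.69 and Havcr2 0.19 against 1.01, while Gpr34 had -1.03 in both settings and Clec4n -0.59 against -0.57. None of these 5 genes passed the interaction test, so they are not shown to differ. For MHC class II the median was -1.32 in RT against control and 0.40 with the agonist, again with no member past the test of the difference. The p53 list had 10 of 32 members higher, 1 lower and a median of 0.26 in RT against control. With the agonist it had 3 higher and a median of 0.16, and 1 member passed the test of the difference.

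**Figure D5:**
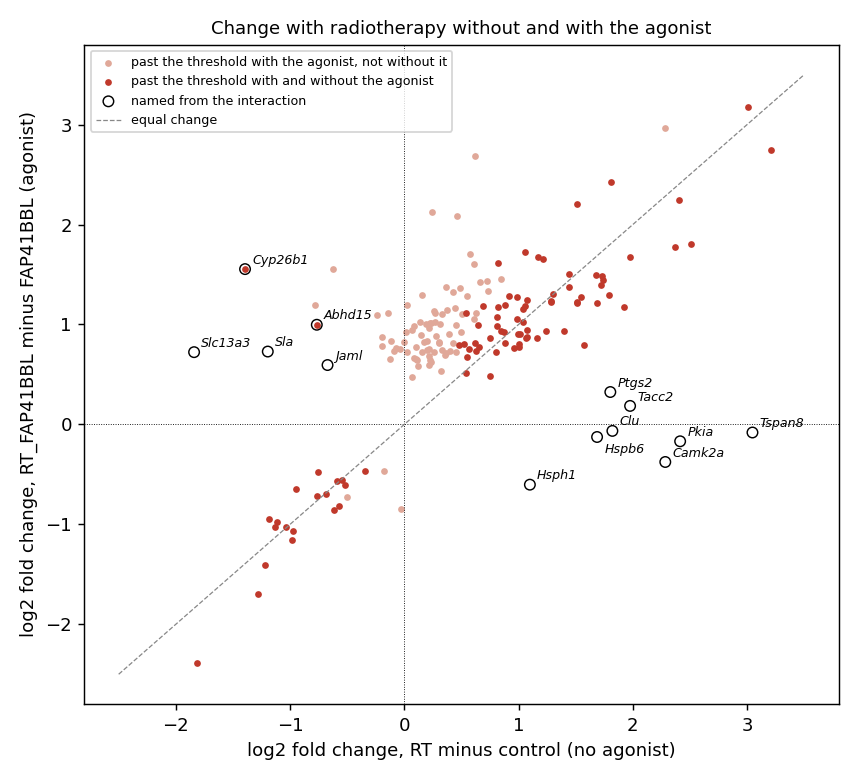
Log2 fold change with radiotherapy in tumours without the agonist (x axis, RT minus control) against that in agonist-treated tumours (y axis, RT_FAP41BBL minus FAP41BBL), with 1 point for each of the 168 genes past the test with the agonist and open circles for the 13 genes named from the interaction. Cyp26b1 and Abhd15 lie above 0 on the y axis and below 0 on the x axis, and Tspan8, Camk2a, Pkia, Clu, Hspb6 and Tacc2 lie near 0 on the y axis and at 1.69 to 3.05 on the x axis.

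A test of the difference between the settings passed for 27 genes (0.152% of those tested), 5 with a higher and 22 with a lower change in the presence of the agonist. All 27 had passed in RT against control, and 2 of them were among the 168. Cyp26b1, which degrades retinoic acid, measured 11, 16 and 9.75 CPM in untreated tumours, 3.57, 3.03 and 7.35 CPM with radiotherapy alone, 5.26, 7.26 and 6.18 CPM with the agonist alone and 16.7, 19.9 and 18.3 CPM with both. It was lower in every RT library than in every control library and higher in every RT_FAP41BBL library than in every FAP41BBL library (interaction 2.95 ± 0.42, adjusted p = 0.0311). Sla, an adaptor that dampens T cell receptor signalling, measured 89.2, 86.5 and 85.5, then 29.8, 39.2 and 45, then 50, 67.4 and 43.2, then 87.3, 88.3 and 90.7 CPM in the same order of groups (1.92 ± 0.23, adjusted p = 0.0154).

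Among the 22 genes with the lower change, Ptgs2, the inducible prostaglandin synthase, measured 38, 48.4 and 49.6 CPM in untreated tumours, 158, 161 and 155 CPM with radiotherapy alone, 75.8, 122 and 89.3 CPM with the agonist alone and 113, 111 and 135 CPM with both (interaction -1.48 ± 0.23, adjusted p = 0.0311). Hsph1, a heat shock protein, went from 104, 97 and 79.8 to 177, 236 and 188 CPM without the agonist and from 160, 122 and 102 to 78.5, 86.9 and 87.9 CPM with it (-1.70 ± 0.23, adjusted p = 0.0307). The RT libraries also held the highest muscle fibre scores, a mean log2 CPM of 7.64 to 8.78 against 1.38 to 6.11 in the other 9 libraries. With that score as a covariate no gene passed the interaction by edgeR's test, and the main comparison had 113 calls. The score and radiotherapy without the agonist can hardly be told apart in that fit.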

How the data were processed

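PolyA RNA was sequenced with a stranded mRNA kit in paired reads. Each deposited file holds 1 library as raw fragment counts per gene, which the authors made with featureCounts 1.6.0 over exons on the reverse strand, per the file headers; STAR 2.7.9a and FastQC 0.11.8 are named in the submitters' processing notes. Coordinates are those of GRCm39, the build of the counts, and promoter sequences are RefSeq entries of GRCm38.p6. Gene symbols came from the annotation by gene ID, and named genes held at least 99.041% of counts. Genes were filtered with filterByExpr, scaled by TMM and fitted with edgeR 4.0.16 (robust quasi-likelihood, R 4.3.3) in 1 model of 4 groups over 12 libraries, with Benjamini-Hochberg adjustment and a threshold of 0.05; an interaction contrast tested the difference between settings. Within each group no library was a copy of another, and pairs from different groups were not checked. The rule for named genes took the 15 largest rises and falls past the threshold without overlap (mean log2 CPM 1 or more), up to 6 members of each list by smallest p, 10 preset genes and up to 8 interaction genes each way; any other gene was chosen after its values were seen. The members and lists were chosen with earlier results of these data known. The 20 alternatives used DESeq2 1.42.0, limma 3.58.1 voom, other scaling, no filter, a replicate block, a muscle covariate, only the compared groups, or 1 library fewer. The script was tested on simulated data. A few list members are counted in their lists and are not reported here by name.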

Additional observations from a re-analysis of the deposited data

Results flagged for a closer look

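The step from no radiotherapy to radiotherapy differed between tumours with and without the agonist for 27 genes, by the interaction term of edgeR's quasi-likelihood test, and 13 of them are named here by their interaction on the log2 scale. Higher changes with the agonist were found for Cyp26b1 (2.95), for Slc13a3, a dicarboxylate transporter (2.56), for Sla (1.92), for Abhd15 (1.76) and for Jaml, an adhesion molecule of leukocytes (1.27).

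Lower changes with the agonist were found for the tetraspanin gene Tspan8 (-3.13), for Camk2a, a calcium-dependent kinase (-2.66), for Pkia, an inhibitor of protein kinase A (-2.58), for Clu, the extracellular chaperone clusterin (-1.89), for the small heat shock protein Hspb6 (-1.81), for Tacc2 (-1.79), for Hsph1 (-1.70) and for Ptgs2 (-1.48). The RT libraries had the highest muscle fibre scores, and with that score as a covariate none of the 27 genes passed the interaction test of edgeR. That fit can hardly tell the score and radiotherapy without the agonist apart.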

How the results depend on the processing

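The 168 calls became 783 with DESeq2, 269 with only the compared groups fitted, and 0 to 411 when a library was left out. The 27 interaction calls became 17 with library totals, 102 without the filter, 639 with DESeq2, 0 with the muscle score as covariate and 0 to 269 when a library was left out. The 1709 calls of RT against control became 3 with the muscle score, 1064 with only the compared groups and 805 to 1987 when a library was left out. Deviations from the group means in same-numbered samples of FAP41BBL and RT_FAP41BBL had correlations of -0.084, -0.141 and 0.069. Differently numbered samples had -0.163 to 0.2. With so few libraries this check cannot exclude that the replicate numbers pair the samples or mark a batch. With a replicate block there were 163 calls, 124 of them among the 168, 9 interaction calls and 4 cholesterol synthesis genes in place of 8. Among genes named by the rule, no change in the main comparison reversed its sign in any of the 20 alternatives where the gene passed in either fit. The named interaction terms also kept their sign. Sign changes of genes that passed in neither fit were not counted. The cause of these shifts was not tested. With 3 libraries a group, small changes and genes of a few reads were not resolved.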
